A study of Mus musculus with 28 samples.

Results

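The distal colon of the mouse takes up sodium and potassium through a small set of transport proteins, and 5 of their genes are described here out of 14123 genes measured. They were taken by name: the subunits of the epithelial sodium channel, ENaC, which are Scnn1a (SCNN1A in the authors' table, alpha), Scnn1b (SCNN1B, beta) and Scnn1g (SCNN1G, gamma), the catalytic subunit of the colonic proton and potassium pump, Atp12a (ATP12A), and Fxyd4 (FXYD4), a small membrane protein of the FXYD family. All 5 were found, each with 1 probe set in that table. The tissue came from female C57BL/6J mice given azoxymethane (AOM), which causes colon tumours, together with dextran sulfate sodium (DSS), which damages the colonic epithelium and inflames the colon, or from untreated mice. Treated mice received 10 mg/kg AOM and, 96 hours later, cycles of 5 days of 2.5% DSS in the drinking water and 14 days of plain water. Early mice had 2 cycles and were killed on day 42, and late mice had 4 cycles and were killed on day 120. RNA of whole colon pieces was hybridised to Affymetrix arrays in 6 groups. Of the proximal colon there were 6 untreated, 3 early and 4 late arrays, and of the distal colon 6 untreated, 3 early and 6 late ones. The labels report dysplasia in the early distal colon, dysplasia and intramucosal adenocarcinoma in the late distal colon, and a proximal colon without lesions. They call the arrays biological replicates without saying which share an animal, and the ages of the mice are not given. Which pieces held a lesion is not stated, so a late distal array may mix tumour and other mucosa.

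ENaC sits in the apical membrane of surface epithelial cells and lets sodium enter, after which the Na+/K+-ATPase of the basolateral membrane moves it to the blood. Aldosterone, acting through the mineralocorticoid receptor, controls this uptake, and in the rat colon it raises mainly the beta and gamma subunits. Atp12a pumps potassium in and protons out across the apical membrane. Fxyd4, also called corticosteroid hormone-induced factor, raises the affinity of the Na+/K+-ATPase for sodium.

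Scnn1g and Scnn1b are neighbours on mouse chromosome 7 with 0 other genes between them in the RefSeq annotation of GRCm38.p6. Their levels varied together from array to array, as described further down, so the sequences before their annotated starts are shown. Both are given 5′ to 3′ on the + strand, from RefSeq, and 3 of the 5 members had an entry in that promoter table. Capitals mark GC boxes (GGGCGG on either strand).
Scnn1b, 250 bases, chr7:121864788-121865037: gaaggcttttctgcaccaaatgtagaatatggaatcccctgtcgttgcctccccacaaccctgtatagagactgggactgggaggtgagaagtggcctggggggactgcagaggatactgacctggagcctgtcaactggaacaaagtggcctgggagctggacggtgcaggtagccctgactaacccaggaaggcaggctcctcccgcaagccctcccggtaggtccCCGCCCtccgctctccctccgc
Scnn1g, 191 bases, chr7:121734229-121734419: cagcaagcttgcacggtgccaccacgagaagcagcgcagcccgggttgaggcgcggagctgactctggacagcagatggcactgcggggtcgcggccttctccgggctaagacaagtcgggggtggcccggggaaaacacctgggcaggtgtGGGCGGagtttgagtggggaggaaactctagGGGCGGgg
The Scnn1b sequence is 60.8% and the Scnn1g sequence 67.0% G and C. Scnn1b has 1 GC box, on the minus strand, and Scnn1g has 2, on the plus strand. A GC box is present in 32.7% of all promoters over 250 bases and in 30.7% over 191 bases, so its presence in both is a description. Shares over 191 bases were taken over the last 191 of the 250 bases, while the Scnn1g sequence is the first 191 of its entry. On either strand, neither sequence contains the letters of a TATA box (TATAAA), of a glucocorticoid receptor core site (TGTTCT) or of a caudal and posterior Hox core (TTTATNG). Their shares are 12.4%, 16.1% and 9.81% of promoters over 250 bases and 9.51%, 12.3% and 7.39% over 191 bases. These letters are not in these windows, and nothing about the factors follows from that.

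The region labels were checked with Hoxb13 and Hoxd13, developmental genes that mark the tail end of the gut and are not among the 5 genes. Hoxd13 stood between 11.05 and 12.20 log2 units in 14 of the 15 arrays labelled distal and between 2.46 and 4.51 in 11 of the 13 labelled proximal. The array labelled untreated proximal 1 had 11.37, and the array labelled untreated distal 3 had 3.44. Hoxb13 was 12.69 in the former and 5.36 in the latter, again the levels of the other region. Late proximal 3 was between the regions, with Hoxb13 at 8.94 and Hoxd13 at 7.52, and late proximal 4 had Hoxb13 at 8.57 and Hoxd13 at 3.59. Because 2 untreated arrays went against their labels, the comparisons of the 5 genes that touch them are given with all 28 arrays and with the 26 others, called 28 and 26 arrays from here on. Values of other genes are from 28 arrays unless stated.

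Values are log2 expression after robust multi-array averaging (RMA), so 1 unit is a 2-fold step, and levels are compared between arrays for 1 probe set, never between genes. Array medians lay between 6.608 and 6.799. Precision is limited by how many arrays a group has. Probe sets outside the authors' table had a median of 4.109, and a fold against a group near that level depends on the background. A gene was called when its adjusted p, from limma over the 14123 genes of a comparison, was under 0.05. The epithelial marker genes measured (4 of 8 listed) had a mean level with group medians between 12.00 and 12.33, so epithelium was present in each group. The 6 arrays with the pancreatic enzyme gene Cpa1 above 6 were untreated proximal 1, untreated distal 1, early distal 3 and late distal 2, 3 and 5.

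**Figure D1:**
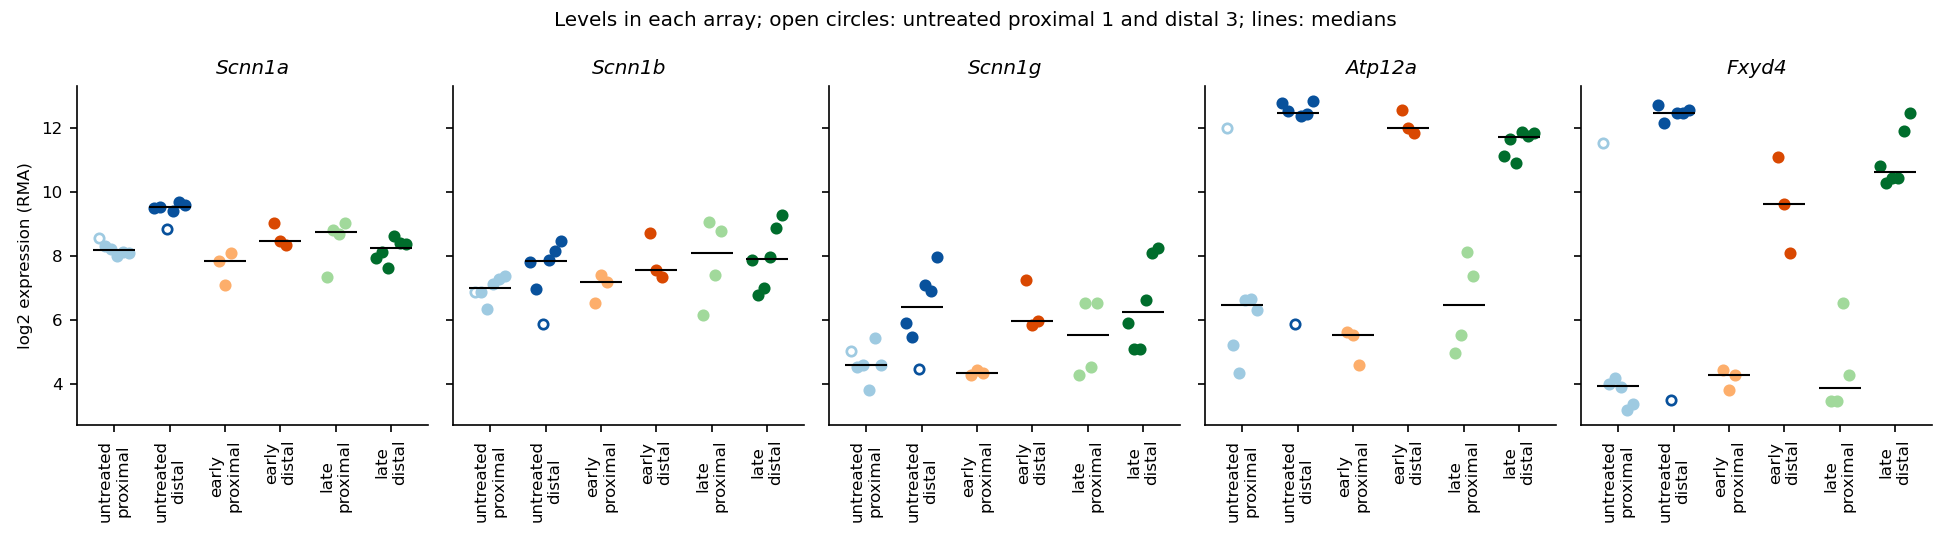
Log2 expression of the 5 genes (vertical axis, RMA values) in each of the 28 arrays, by group (horizontal axis); points are arrays, lines are group medians, and open circles are untreated proximal 1 and untreated distal 3. Atp12a and Fxyd4 lie far apart between the regions, the open circles lie with the other region for these 2 genes, and Scnn1b and Scnn1g spread widely within the late groups.

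The first question is where along the untreated colon each gene was expressed. Atp12a and Fxyd4 were distal genes by a wide margin, and Scnn1a was higher distally by a smaller one. In the main fits Scnn1g was called higher distally with 26 arrays but not with 28, and Scnn1b with neither. With 28 arrays 3 of the 5 were called, all higher in the distal colon, where 9.8% of all genes were called in either direction. With 26 arrays 4 of the 5 were called, beside 25.3% of all genes.

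Scnn1a, the alpha subunit that the channel needs to reach the membrane, ranged from 8.01 to 8.57 with a median of 8.17 in untreated proximal arrays. In untreated distal arrays it ranged from 8.83 to 9.69 with a median of 9.51. The groups did not overlap, even though untreated distal 3 was the lowest distal array and untreated proximal 1 the highest proximal one. The difference was 1.21 ± 0.23 (SE, n = 6 and 6, adjusted p = 0.0046), or 2.31-fold, and 1.40 ± 0.24 with 26 arrays (adjusted p = 0.000109). In these 2 arrays Scnn1a lay between the other proximal arrays (up to 8.30) and the other distal arrays (9.41 and above), unlike Atp12a and Fxyd4, which had the levels of the other region.

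Scnn1b ranged from 6.33 to 7.36 in untreated proximal arrays and from 5.86 to 8.46, with a median of 7.84, in untreated distal arrays. The lowest distal value was that of untreated distal 3, and the groups overlapped with and without it. The difference was 0.54 ± 0.47 with 28 arrays (adjusted p = 0.507) and 0.85 ± 0.49 with 26 (adjusted p = 0.21, 95% interval -0.15 to 1.85).

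Scnn1g had a median of 4.59 (3.81 to 5.43) in untreated proximal arrays, close to the background, and of 6.39 (4.47 to 7.98) in untreated distal arrays. The difference of 1.64 ± 0.57 was not called with 28 arrays (adjusted p = 0.0678). With 26 arrays the groups did not overlap and the difference of 2.08 ± 0.59 was called (adjusted p = 0.0113). Within the distal group, untreated distal 1 and 2 had 5.89 and 5.47, while untreated distal 4, 5 and 6 had 7.08, 6.90 and 7.98. For Scnn1b too, untreated distal 1 and 2 (7.80 and 6.95) were below untreated distal 4, 5 and 6 (7.87, 8.14 and 8.46).

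Atp12a stood at 4.33 to 6.66 in 5 untreated proximal arrays and at 12.00 in untreated proximal 1. In the distal colon 5 arrays had 12.36 to 12.83, and untreated distal 3 had 5.87. The difference was 4.61 ± 1.03 with 28 arrays (adjusted p = 0.00759). It was 6.76 ± 0.47 with 26 arrays (adjusted p = 6.84e-11), and the groups then did not overlap.

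Fxyd4 had 3.19 to 4.18 in 5 untreated proximal arrays, at the background, and 11.53 in untreated proximal 1. Distal levels were 12.14 to 12.71 in 5 arrays and 3.50 in untreated distal 3. The difference was 5.95 ± 1.32 with 28 arrays (adjusted p = 0.00705) and 8.75 ± 0.52 with 26 (adjusted p = 4.12e-12). With the proximal level at the background, the size of this difference depends on that background. The Atp12a and Fxyd4 calls made with 28 arrays were lost when only the 2 untreated groups were fitted (adjusted p = 0.0914 and 0.0883). They were also lost with untreated arrays 1 to 3 alone (adjusted p = 0.558 and 0.564), which hold both arrays that went against their labels.

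**Figure D2:**
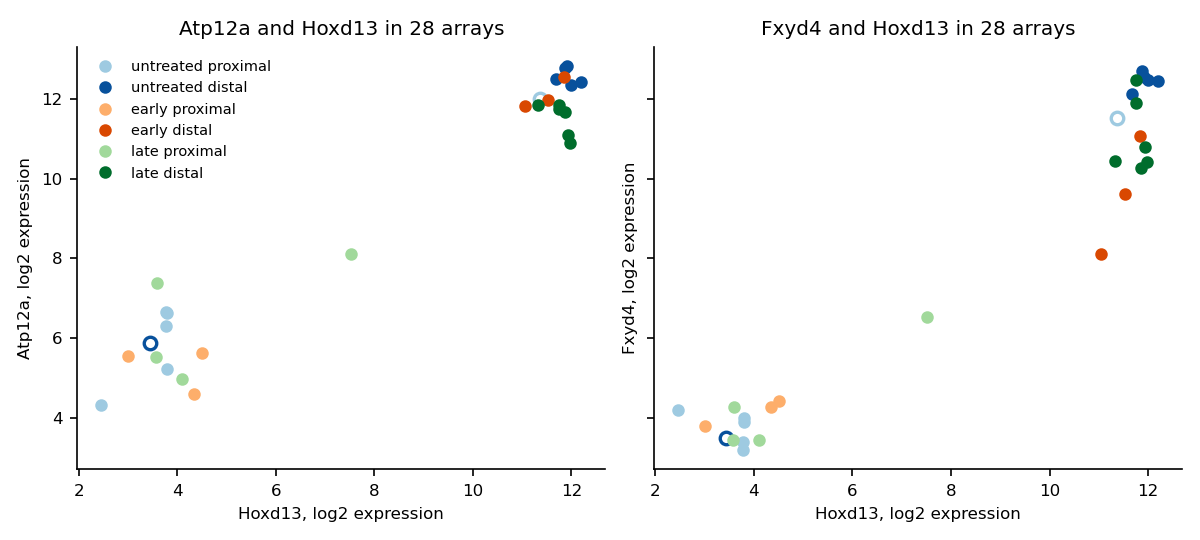
Atp12a (left) and Fxyd4 (right), log2 expression on the vertical axes, against Hoxd13, log2 expression on the horizontal axes, in 28 arrays coloured by group; open circles are untreated proximal 1 (11.37 for Hoxd13) and untreated distal 3 (3.44). The open circles lie in the cluster of the region opposite to their label, and late proximal 3 lies between the clusters.

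In treated mice the regional pattern held for Atp12a and Fxyd4. Atp12a had 5.63, 5.54 and 4.59 in early proximal and 12.56, 11.99 and 11.83 in early distal arrays, a difference of 6.87 ± 1.46. This was the 1 member called between the early regions with 28 arrays (adjusted p = 0.0164, beside 1.9% of all genes). The call was lost without early proximal 1, early proximal 3, early distal 2 or early distal 3 (adjusted p from 0.0504 to 0.0949), while the difference stayed between 6.54 and 7.06. With 26 arrays Atp12a and Fxyd4 were both called (adjusted p = 1.85e-08 and 4.46e-06, beside 6.85% of all genes). Fxyd4 had 4.42, 3.80 and 4.26 in early proximal and 11.08, 9.61 and 8.10 in early distal arrays, without overlap. Its difference was 5.44, with a SE of 1.86 with 28 arrays (adjusted p = 0.146) and of 0.67 with 26. The spread is shared by all groups, so untreated proximal 1 and untreated distal 3 raised the SE here too. Scnn1a (0.95 ± 0.33, adjusted p = 0.147) and Scnn1g (2.00 ± 0.81, adjusted p = 0.243) were also higher in early distal arrays without overlap. Neither was called in the main fits with 28 or 26 arrays. Scnn1b differed by 0.83 ± 0.67 with overlap (adjusted p = 0.735). By limma, 4 of the 5 had an unadjusted p under 0.05 here. When only the early groups were fitted, Fxyd4 and Scnn1g were called as well (adjusted p = 0.00519 and 0.0264).

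Late mice kept the difference. Atp12a ranged from 10.91 to 11.86 in late distal arrays and was 4.96, 5.52, 8.12 and 7.38 in late proximal ones, a difference of 5.03 ± 1.16 (adjusted p = 0.00126). Fxyd4 ranged from 10.27 to 12.48 distally and was 3.45, 3.45, 6.53 and 4.26 proximally, a difference of 6.63 ± 1.47 (adjusted p = 0.000928). These 2 of the 5 genes were called between the late regions, beside 36.9% of all genes, and the same 2 with 26 arrays, beside 40% of all genes. The highest proximal values of both genes were in late proximal 3, the array with intermediate Hox levels.

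The sodium channel subunits were not called between the late regions in the main fits. Scnn1a was 8.17 ± 0.36 (SD, n = 6) in late distal and 8.46 ± 0.76 (n = 4) in late proximal arrays, a difference of -0.29 ± 0.26 (adjusted p = 0.411, 95% interval -0.82 to 0.25). Without late proximal 1, the lowest of its group at 7.33, Scnn1a was called lower in the late distal colon by 0.66 (log2 difference -0.66, adjusted p = 0.022). Scnn1g differed by 1.05 ± 0.64 (adjusted p = 0.209) and Scnn1b by 0.11 ± 0.53 (adjusted p = 0.892).

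The next question is what treatment did to the distal colon. Scnn1a fell in the late distal colon with 28 and with 26 arrays and in the early distal colon with 26. With 28 arrays its early fall was called with array weights (-1.04, adjusted p = 0.000626) but not in the main fit. Fxyd4 fell in the late and in the early distal colon with 26 arrays. With 28 it was called in neither, except in the early distal colon with array weights (-3.36, adjusted p = 0.0158). With untreated arrays 4 to 6 alone, which leaves out both untreated arrays that went against their labels, it was called there too (-2.91, adjusted p = 0.00977). Scnn1b, Scnn1g and Atp12a were called in neither comparison. With 28 arrays 1 of the 5 was called in late against untreated distal colon, lower, beside 48.5% of all genes, and 0 in early against untreated distal colon, beside 11.3% (limma, with 1 at an unadjusted p under 0.05). With 26 arrays the counts were 2, both lower, beside 51.3%, and 2, both lower, beside 13.2%. A share of 1 or 2 in 5 is thus not above the background in the late comparison.

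Scnn1a in late distal arrays was 7.92, 8.11, 7.62, 8.62, 8.39 and 8.37, all below the lowest untreated distal value of 8.83. The log2 difference was -1.25 ± 0.23 with 28 arrays (2.39-fold lower, adjusted p = 9.25e-05) and -1.37 ± 0.23 with 26 (adjusted p = 3.87e-05). Leaving out any 1 of the 28 arrays moved it between -1.37 and -1.14 and kept the call. The authors' deposited table gives a signed fold change of 2.39 for untreated over late distal colon, with a step-up adjusted p of 0.0003. The late distal mean was 8.17 ± 0.36 (SD, n = 6), beside 8.22 ± 0.20 (n = 6) in the untreated proximal colon.

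Early distal levels of Scnn1a were 9.04, 8.46 and 8.34. Early distal 1 lay above untreated distal 3, so the groups overlapped with 28 arrays. The difference of -0.81 ± 0.28 was not called (adjusted p = 0.0657). It was called when untreated distal 3 (adjusted p = 0.0315), early distal 1 (0.0309) or late proximal 1 (0.0154) was left out. With 26 arrays there was no overlap and the difference of -0.93 ± 0.28 was called (adjusted p = 0.0283). That call was lost without early distal 2 (adjusted p = 0.117), early distal 3 (0.19), untreated distal 5 (0.0552) or untreated distal 6 (0.051). It was also lost without the arrays with pancreatic transcripts (-0.80, adjusted p = 0.239). The values of all early arrays carry more decimals than those of the others and look like averages of 2 values, which cannot be told apart from the early state.

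Fxyd4 in the early distal colon was 11.08, 9.61 and 8.10, against 12.14 to 12.71 in the 5 untreated distal arrays other than untreated distal 3. With 26 arrays the difference was -2.88 ± 0.60 (7.35-fold lower, adjusted p = 0.00212). Early distal 3 was the lowest of the 3 and the one with pancreatic transcripts, and without it the difference was -2.13 (adjusted p = 0.051). With 28 arrays the difference of -1.38 ± 1.61 was not called (adjusted p = 0.672), and the SD of the 6 untreated distal arrays was 3.67.

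In the late distal colon Fxyd4 was 10.81, 10.27, 10.42, 10.45, 11.90 and 12.48. The first 5 lay below every untreated distal array other than untreated distal 3, and late distal 6 lay among them. The sign depended on the 2 untreated arrays that went against their labels: the difference was 0.08 ± 1.32 with 28 arrays (adjusted p = 0.967) and -1.42 ± 0.50 with 26 (adjusted p = 0.0205). The authors' deposited table, whose group means match those of all arrays, gives a signed fold change of -1.05 for untreated over late. When the arrays with pancreatic transcripts were left out as well, the difference was -1.17 and not called (adjusted p = 0.107).

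Atp12a in late distal arrays was 11.11, 11.67, 10.91, 11.86, 11.75 and 11.85. All 6 lay below the 5 untreated distal arrays other than untreated distal 3, which began at 12.36. The difference with 26 arrays, -1.06 ± 0.45, missed the threshold (adjusted p = 0.0505), and it passed in 7 of the 26 fits that left out 1 further array. With 28 arrays it was 0.06 ± 1.03 (adjusted p = 0.967). In early distal arrays the difference was -0.46 ± 0.54 with 26 arrays (adjusted p = 0.661, 95% interval -1.57 to 0.65).

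Scnn1b and Scnn1g had late distal means close to the untreated ones and a wide spread. Scnn1b was 7.88, 6.77, 6.99, 7.95, 8.88 and 9.27 in late distal arrays, a difference of 0.44 ± 0.47 with 28 arrays and 0.11 ± 0.46 with 26 (adjusted p = 0.454 and 0.855). Scnn1g was 5.91, 5.08, 5.10, 6.61, 8.10 and 8.26, a difference of 0.21 ± 0.57 and -0.15 ± 0.57 (adjusted p = 0.778 and 0.84). Late distal 5 and 6 exceeded every untreated distal array for both genes. For Scnn1g, late distal 2 and 3 lay below every untreated distal array other than untreated distal 3. In early distal arrays Scnn1b was 8.72, 7.55 and 7.34 and Scnn1g 7.24, 5.83 and 5.95, with early distal 1 the highest for both.

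**Figure D3:**
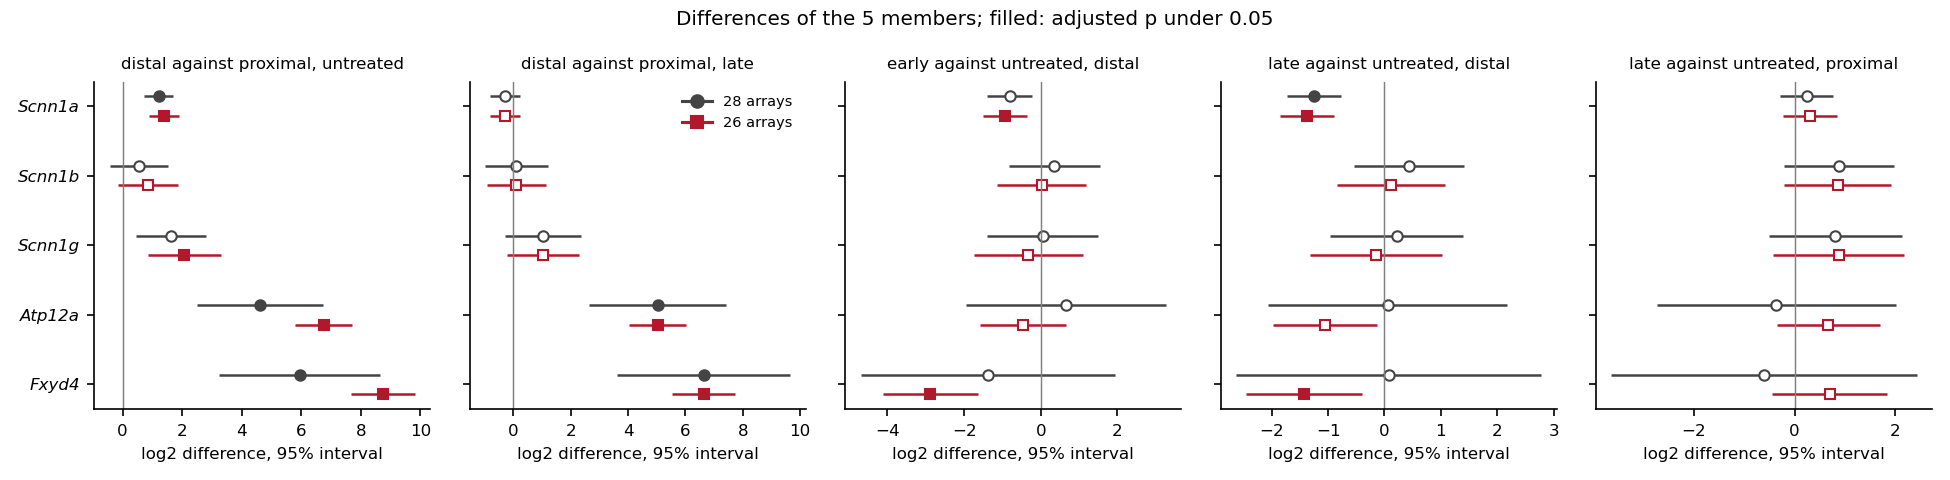
Log2 differences (horizontal axes) of the 5 genes in 5 comparisons with 95% confidence intervals; circles are 28 arrays, squares the 26 arrays without untreated proximal 1 and untreated distal 3, and filled symbols have an adjusted p under 0.05. Scnn1a was called in the late distal colon with both sets of arrays, and intervals of Atp12a and Fxyd4 are wide with 28 arrays and narrow with 26.

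From early to late distal colon 0 of the 5 genes were called (limma, 0 at an unadjusted p under 0.05, beside 24.1% of all genes called). Fxyd4 had the largest difference there, 1.46 ± 1.61 (adjusted p = 0.533), and with 26 arrays its SE was 0.58 and its adjusted p 0.0636.

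The proximal colon, which the labels give as free of lesions, was compared in the same way. None of the 5 was called in early against untreated proximal colon by limma (0 at an unadjusted p under 0.05), beside 7.59% of all genes with 28 arrays and 12.1% with 26. None was called in late against untreated proximal colon (0 at an unadjusted p under 0.05), beside 0.0212% and 0.368%, nor in late against early (1 at an unadjusted p under 0.05), beside 0.666%. Scnn1a was 7.83, 7.08 and 8.08 in early and 7.33, 8.81, 8.67 and 9.02 in late proximal arrays, a difference of 0.79 ± 0.31 between them (adjusted p = 0.254). Without late proximal 1 that difference was 1.17 and was called (adjusted p = 0.0169). Array weights on 28 arrays called it too (0.94, adjusted p = 0.00497). They also called Scnn1a in late against untreated proximal colon (0.52, adjusted p = 0.0405).

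Scnn1b in late proximal arrays was 6.14, 9.06, 7.39 and 8.79, with a SD of 1.35, against 0.38 in untreated proximal arrays. Scnn1g was 4.29, 6.52, 4.51 and 6.54 there. Late proximal 2 and 4 thus held more of both subunits than any untreated proximal array, and late proximal 1 and 3 did not for Scnn1g. The differences of the group means, 0.87 ± 0.53 and 0.80 ± 0.64, were not called (adjusted p = 0.749 and 0.867).

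Whether the treatment response differed between the regions was tested as an interaction, the distal change minus the proximal change. For the late response Scnn1a was called (-1.49 ± 0.35, adjusted p = 0.00395), the only one of the 5, beside 19.4% of all genes. With 26 arrays Scnn1a (-1.68 ± 0.35, adjusted p = 0.00148) and Fxyd4 were called, beside 23% of all genes. Scnn1a remained called when any single array was left out, with values between -1.87 and -1.31. It was not called without both late proximal 3 and 4 (-1.11, adjusted p = 0.0686) or with untreated arrays 1 to 3 alone (-1.21, adjusted p = 0.0862). The Fxyd4 value, -2.12 ± 0.74 (adjusted p = 0.0422), lost its call in 14 of the 26 fits that left out 1 further array. It was -1.41 without late proximal 3 (adjusted p = 0.122). Untreated proximal Fxyd4 was at the background (3.19 to 4.18 with 26 arrays), so a proximal fall could not have been seen. The Fxyd4 interaction therefore cannot show that the proximal colon responded differently. Atp12a had -1.73 ± 0.67 in the late response with 26 arrays (adjusted p = 0.0632), and array weights called it (-2.29, adjusted p = 0.00894). For the early response 0 of the 5 were called by limma (0 at an unadjusted p under 0.05 with 28 arrays and 1 with 26), beside 0% and 0.12% of all genes. The 1 was Fxyd4 (-3.31 ± 0.85, adjusted p = 0.144), with the same limit of the proximal background. Array weights with 26 arrays called it (-4.24, adjusted p = 0.00937).

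The order of the group means differed between the genes. For Scnn1a with 26 arrays it ran from untreated distal (9.54) through early distal (8.61), late proximal (8.46), late distal (8.17) and untreated proximal (8.15) to early proximal (7.66). Of these neighbours only the first pair did not overlap. For Atp12a and Fxyd4 the 3 distal groups came first, and the step to the first proximal group was the only one without overlap between neighbours. For Scnn1b and Scnn1g every pair of neighbours overlapped.

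Scnn1b and Scnn1g moved together across arrays. Their levels had Pearson's r = 0.848 and Spearman's rho = 0.810 over the 28 arrays, and their deviations from the group means had r = 0.874 over 26 arrays. These are descriptions, since the arrays share groups and normalization. Scnn1a was less like them, with r = 0.406 to Scnn1b and 0.559 to Scnn1g in 28 arrays. Atp12a and Fxyd4 had r = 0.957 over 28 arrays, which fall into a distal and a proximal cluster, and their deviations from the group means had r = 0.440.

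The spread within groups also set the genes apart. In the 6 late distal arrays the SD of Scnn1g was 1.41, larger than that of 99.8% of all genes, where the median SD was 0.23. Scnn1b had 0.99 and Fxyd4 0.92, larger than 99.3% and 99.1% of genes. In the 5 untreated distal arrays without untreated distal 3, Scnn1a had a SD of 0.11, and 5.1% of genes had a smaller one.

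Among all named genes tested other than the 5 themselves, the 3 whose levels were most like each member over the 28 arrays were found by Pearson's r. For Scnn1a they were Ndrg2 (0.876), Tesk2 (0.873) and Acss2 (0.867). For Scnn1b they were Best2 (0.825), Hif3a (0.757) and Apoc2 (0.753), and for Scnn1g Best2 (0.893), Tmem37 (0.865) and Cpq (0.825). Best2, a chloride and bicarbonate channel, came first among these for both, and its deviations from the group means had r = 0.960 to those of Scnn1b and 0.834 to those of Scnn1g in 26 arrays. For Atp12a they were Tgm3 (0.984), Hoxb13 (0.982) and B3gnt7 (0.979), and for Fxyd4 Casp14 (0.974), Hoxd13 (0.969) and Tmprss13 (0.968). The arrays fall into a distal and a proximal cluster for these genes.

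Related genes were described in 5 lists of 62 genes, of which 57 were measured. The first list holds 14 regulators of ENaC, 13 of them measured. In the late distal colon 10 of the 13 were lower with 28 arrays and 12 with 26, and 0 were higher, with a median difference of -0.63 against 0.00 over all genes. In this comparison 48.5% of all genes were called with 28 arrays (3667 higher and 3185 lower of 14123) and 51.3% with 26, and the late distal counts of the other lists are to be read beside the same shares. Usp2, an enzyme that removes ubiquitin and so keeps the channel at the surface, fell most (-1.70 ± 0.27, adjusted p = 1.44e-05). Nr3c2, the mineralocorticoid receptor, fell by 1.5 ± 0.15 on the log2 scale (adjusted p = 2.95e-08), and Fkbp5, a cochaperone of steroid receptors, by 1.17 ± 0.34 (adjusted p = 0.00625). Genes with opposite actions on the channel were both lower: Sgk1 (-0.53 ± 0.20, adjusted p = 0.0274), a kinase that keeps it at the surface, and Nedd4l (-0.63 ± 0.11, adjusted p = 4.45e-05), the ubiquitin ligase that removes it. In the early distal colon, where 11.3% of all genes were called with 28 arrays and 13.2% with 26, 1 was lower with 28 arrays, Usp2 (-1.43 ± 0.33, adjusted p = 0.00463). With 26 arrays Per1 was lower as well (-0.85 ± 0.28, adjusted p = 0.0435). Between the untreated regions 0 of the 13 were called with 28 arrays (limma) and 2, Nr3c1 and Nedd4l, were lower distally with 26.

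Deviations of Sgk1 from its group means had r = 0.895 to those of Scnn1g and 0.831 to those of Scnn1b over 26 arrays, and 0.552 to those of Scnn1a. To Scnn1b and Scnn1g, the regulators Fkbp5 (r = 0.818 and 0.813) and Hsd11b2 (0.818 and 0.770) came near Sgk1. Wnk1 (-0.630 and -0.650), Rictor (-0.399 and -0.429), Nr3c1 (-0.240 and -0.128) and Wnk4 (-0.159 and -0.158) went the other way. For Per1, a clock gene, r was 0.864 to Scnn1a, 0.789 to Scnn1b and 0.705 to Scnn1g. Prss8, or prostasin, a protease that cleaves the gamma subunit, had r = 0.878 to Scnn1a. Within the late distal group Sgk1 was lowest in arrays 2 and 3 (11.70 and 11.77) and highest in arrays 5 and 6 (12.87 and 12.64). The same arrays were low and high for Scnn1b and Scnn1g. The pancreatic gene Cpa1 was 12.34 in array 2, 10.68 in array 3, 7.46 in array 5 and 4.54 in array 6. The part of pancreatic tissue in these levels was not tested. The genes of this paragraph were chosen after their values were seen.

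**Figure D4:**
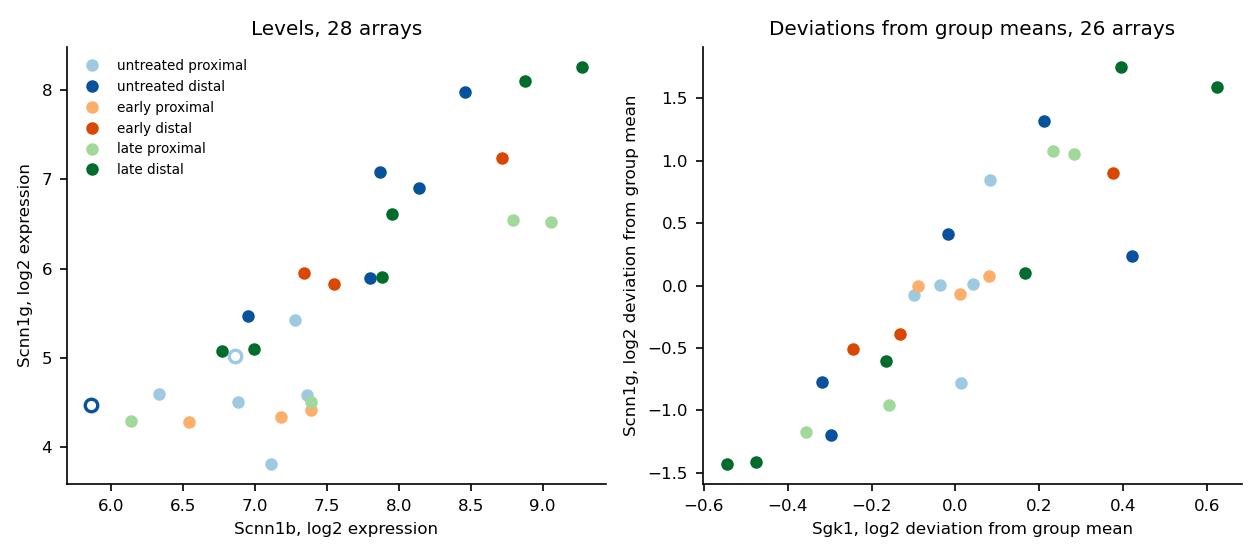
Left, Scnn1g against Scnn1b (log2 expression) in 28 arrays coloured by group, with untreated proximal 1 and untreated distal 3 as open circles. Right, deviation of Scnn1g from its group mean against that of Sgk1 (log2 units) in 26 arrays. Pearson's r is 0.848 on the left and 0.895 on the right, and late distal arrays lie at both ends on the right.

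The second list holds proteases that cleave ENaC and their inhibitors, 7 of 8 measured. In the late distal colon 4 were higher and 0 lower, with a median of 0.27, a count near the 48.5% of all genes: Serpine2 (1.17 ± 0.31, adjusted p = 0.00284), an inhibitor of prostasin, and the proteases St14, Furin and Tmprss4 (0.27 to 0.39). Prss8 was not called (-0.34 ± 0.20, adjusted p = 0.173). In the untreated colon Tmprss2, a membrane protease, was higher distally (0.51 ± 0.11, adjusted p = 0.00581). None of the 7 was called in the early comparison by limma with 28 or 26 arrays.

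Pump subunits and other FXYD proteins were 13 measured of 14 listed. In the late distal colon 5 were higher and 6 lower with 28 arrays, and 6 higher and 6 lower with 26, beside 48.5% and 51.3% of all genes called. Fxyd5, or dysadherin, which modifies the pump and cell adhesion, rose by 1.58 ± 0.26 (adjusted p = 2.36e-05), Atp4a, the catalytic subunit of the gastric proton pump, by 1.56 ± 0.18 (adjusted p = 2.89e-07) and Fxyd6 by 1.46 ± 0.25 (adjusted p = 4.28e-05). Atp1b1, a beta subunit of the Na+/K+-ATPase, fell by 0.37 ± 0.10 (adjusted p = 0.00308). In the early distal colon Fxyd5 was higher (1.51 ± 0.32, adjusted p = 0.00225) and Fxyd1 was lower (-0.68 ± 0.19, adjusted p = 0.0171). Fxyd6 was also higher in the untreated distal than proximal colon with 26 arrays (1.00 ± 0.21, adjusted p = 0.000977).

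Of the potassium channels 9 of 11 were measured, and in the late distal colon 2 were higher and 4 lower, beside 48.5% of all genes called. Kcnk5, a background potassium channel, fell by 1.55 ± 0.20 (adjusted p = 8.7e-07). Kcnma1, the large-conductance channel through which the distal colon secretes potassium, fell by 0.52 ± 0.14 (adjusted p = 0.00353). Kcnmb4, an accessory subunit of that channel, rose by 0.71 ± 0.17 (adjusted p = 0.00123). Early in treatment Kcnq1 was lower in the distal colon (-0.60 ± 0.19, adjusted p = 0.0351).

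The last list holds 15 genes of electroneutral absorption and chloride secretion, all measured. In the late distal colon 11 were lower and 0 higher with 28 and with 26 arrays, with a median of -0.85, beside 48.5% and 51.3% of all genes called in either direction. Aqp8, a water channel of colonocytes, fell by 2.90 ± 0.36 (adjusted p = 6.02e-07), Slc9a2, a sodium and proton exchanger, by 2.02 ± 0.26 (adjusted p = 7.25e-07), and Slc26a3, the chloride and bicarbonate exchanger of the surface epithelium, by 1.72 ± 0.22 (adjusted p = 7.72e-07). Cftr, the chloride channel of secretion, fell by 1.33 ± 0.15 (adjusted p = 9.13e-08). Slc9a3, the main apical sodium and proton exchanger, was not called (0.25 ± 0.23, adjusted p = 0.37). Early distal arrays had 3 lower with 28 arrays and 4 with 26, Pdzk1 being the addition. The 3 were the carbonic anhydrases Car1 (-1.12 ± 0.21) and Car2, and Slc4a4, a sodium bicarbonate cotransporter. In late against untreated proximal colon 0 of the 57 genes were called by limma with 28 or with 26 arrays, where 0.0212% and 0.368% of all genes were called.

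**Figure D5:**
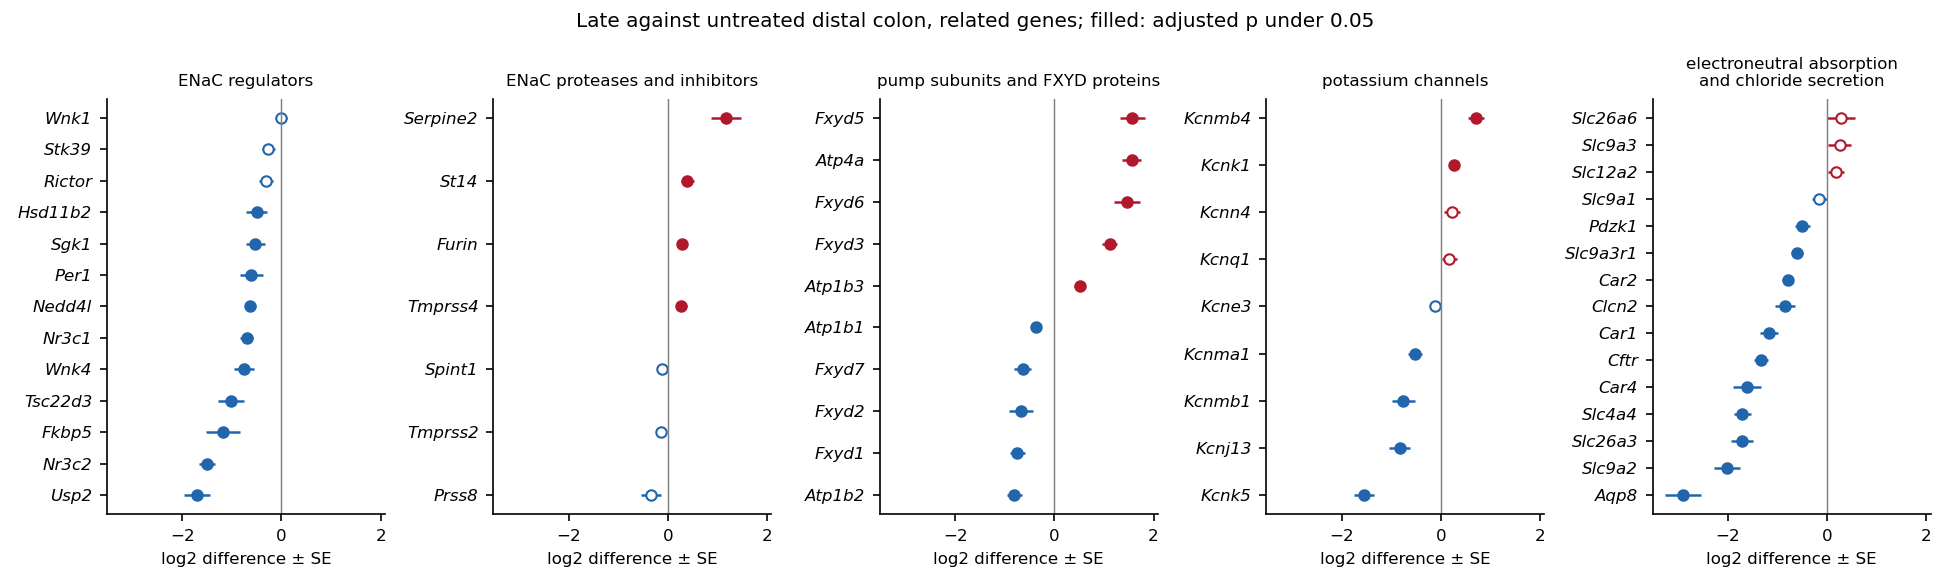
Log2 difference of late against untreated distal colon (horizontal axes, ± SE, 28 arrays) for genes of the 5 related lists, leaving out some pump subunits; filled points have an adjusted p under 0.05, red is higher and blue lower. ENaC regulators and the genes of electroneutral absorption and chloride secretion lie mostly to the left of 0, with Usp2 at -1.70 and Aqp8 at -2.90.

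Markers of other cells moved in the same comparison. In the late distal colon 4 of 4 measured immune cell genes and 3 of 3 neutrophil genes were higher, among them S100a8 by 6.79 ± 0.45 (adjusted p = 1.51e-11), and 4 of 5 smooth muscle genes were lower, the largest change being Myh11 (-0.63 ± 0.17). The mean level of the neutrophil genes ranged from 4.44 to 6.31 in untreated distal and from 10.30 to 11.14 in late distal arrays. Of the epithelial genes Epcam was not called (-0.04 ± 0.17, adjusted p = 0.865), Vil1 and Krt20 were lower (-0.27 ± 0.09 and -0.37 ± 0.13) and Krt18 was higher (0.24 ± 0.08). In the early distal colon 4 of 4 immune and 3 of 3 neutrophil genes were also higher. In whole tissue, fewer cells of a type and less RNA per cell cannot be told apart, and the part of the cell mixture in these differences was not tested.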

How the data were processed

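The deposited log2 values came from Affymetrix arrays after RMA, and the submitters' processing notes also name Partek 6.5. Per the labels' protocols, RNA was extracted with Trizol and amplified with NuGEN kits. A table deposited by the authors holds their group means in log2 units, a signed fold change with the untreated group first (a score with no values between -1 and 1), and p-values with step-up adjustment. Group means of the value table and of that table differed by at most 0.0051.

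Across 28 arrays there were 45101 probe sets. Names came from the authors' table (26933 probe sets), matched to mouse symbols or synonyms of RefSeq (19900 and 1619), and 2314 kept the table's name. For the 5857 of 14123 genes with several probe sets, the highest mean over all arrays decided which was used. No further filter was applied. Limma 3.58.1 in R 4.3.3 fitted 6 group means, with no covariate and with variances moderated by eBayes (degrees of freedom 22 residual, 3.78 prior), and p-values were adjusted by Benjamini and Hochberg over all genes of each of 11 comparisons. SE is the moderated standard error, SD the spread of a group's arrays. The fit was tested on simulated data. Figures were drawn with matplotlib 3.10.9, and tables made with pandas 2.3.3 under Python 3.11.15. P-values rest on the spread between arrays within groups, pooled over all 6 groups. A widely spread group thus also raises the SE of comparisons that do not hold it.

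The members, the lists, the comparisons and the naming rule were chosen with earlier results of these data known. The rule named all 5 members, the called list genes with the 3 largest changes in the late distal, early distal and untreated region comparisons, any list gene where its list is described, and the 3 genes most like each member, passing over predicted, Riken and unnamed genes. Alternatives are given in the closing section. The 26-array fit was planned with the earlier results known. Its own alternatives and the checks of pancreatic transcripts and of late proximal 3 and 4 were added after seeing the data. Some genes of the pump list are counted but not reported here by name.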

Additional observations from a re-analysis of the deposited data

Results flagged for a closer look

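Of 20 sets of values (5 genes in the 4 groups of 4 or 6 arrays), 5 held an array whose gap to the nearest other array, as a share of the group's range, passed Dixon's 95% critical value, which chance passes in about 1 in 20 groups. All 5 were untreated proximal 1 or untreated distal 3, the arrays with the Hox levels of the other region. For Atp12a the shares were 0.696 in untreated proximal 1 (12.00) and 0.933 in untreated distal 3 (5.87). For Fxyd4 they were 0.882 (11.53) and 0.939 (3.50). For Scnn1a untreated distal 3 (8.83) had 0.670.

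The late response differed between the regions for Scnn1a, by an interaction of -1.49 with 28 arrays and -1.68 with 26. Fxyd4 was flagged with -2.12 with 26 arrays, but its untreated proximal level was at the background, where a fall could not be seen.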

How the results depend on the processing

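Counts of called members are given here. Leaving out 1 array at a time gave 3 to 4 between the untreated regions (3 with all 28 arrays), 0 to 1 in the early distal colon (0), 1 in the late distal colon (1), 0 to 1 in late against early proximal colon (0), 0 to 2 between the early regions (1), 2 to 3 between the late regions (2) and 1 in the late response between regions (1). With 26 arrays it gave 0 to 2 in the early distal colon (2), 2 to 3 in the late distal colon (2), 0 to 1 in the early response (0) and 1 to 3 in the late response (2). Fitting only the groups compared gave 1 between the untreated and 3 between the early regions. Array weights gave 2 in the early distal colon, 1 in late against untreated proximal colon, 1 in late against early proximal colon, 2 between the early and 4 between the late regions. Weights with 26 arrays gave 1 in the late proximal colon, 4 between the late regions and 1 in the early response. Without untreated proximal 1 and distal 3 the count was 2 in the early and in the late distal colon, between the early regions and in the late response, and Fxyd4 turned from 0.08 to -1.42 in the late distal colon and from 0.68 to -2.12 in the late response. Untreated arrays 1 to 3 alone gave 0 between the untreated regions and 0 in the late response, and 4 to 6 alone gave 1 in the early distal colon and 2 between the early regions. Without late proximal 3 and 4 the late response had 0. With 26 arrays and without the pancreatic arrays the early distal colon had 0, the late distal colon 1 and the late response 1. The causes of these changes were not tested. Fits that leave arrays out also hold fewer arrays, and the part of that was not tested either.

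Of 3630 single values under alternatives, 3545 kept their side of the threshold, and 143 changed sign with no call in either fit. Arrays of the same state and number in both regions had deviation correlations from -0.233 to 0.691, and not every pair was over 0.1, although some arrays were most like their own number, so the numbers were not taken as pairs. With the replicate block as a random effect (correlation 0.185) Scnn1g was called between the untreated regions (1.64, adjusted p = 0.0339; 0.029 with a fixed block), and with 26 arrays Scnn1a between the early regions (0.95, adjusted p = 0.0443). The block changed no count of called members by over 1.5 times. Signal over background limits Scnn1g and Fxyd4 in the proximal colon.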

Other observations

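Among the related lists, the late response was lower in the distal than in the proximal colon (interaction, 28 arrays) for 6 of the 13 measured ENaC regulators and 10 of the 15 genes of electroneutral absorption and chloride secretion, and higher for 0 of either, where 19.4% of all genes were called. With 26 arrays the counts were 5 and 10, beside 23% of all genes. The largest of these were Aqp8 (-2.81 ± 0.54, adjusted p = 0.000856), Slc9a2 (-2.03 ± 0.38, adjusted p = 0.000656) and Usp2 (-1.82 ± 0.40, adjusted p = 0.00262). Hsd11b2, the enzyme that inactivates glucocorticoids and so leaves the mineralocorticoid receptor to aldosterone, had -0.95 ± 0.31 (adjusted p = 0.0328). From early to late distal colon 5 of the 13 pump subunits and FXYD proteins were higher and 2 lower, where 24.1% of all genes were called.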
